A study of Mus musculus with 12 samples.

Results

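Chemokine ligand and receptor genes were examined in tibialis anterior (TA) muscles of mice that had received a plasmid encoding human *FRAIL1*, a long noncoding RNA, or empty plasmid. The members were chosen by symbol: a name that starts with Ccl, Cxcl, Ccr, Cxcr or Ackr and a digit, with *Cx3cl1*, *Cx3cr1*, *Xcl1*, *Xcr1* and *Ccrl2* added. Of 27179 genes listed in the count table, 65 met this rule, 41 ligand genes and 24 receptor genes, and 42 of them (25 ligand and 17 receptor genes) passed the filter on low counts and were tested among 15502 genes.

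The mice were wild-type C57BL/6N males that arrived at 6 to 8 weeks of age and were used within 2 weeks. In each, 1 TA received 10 μg of empty pcDNA3 plasmid (6 Control muscles) and the TA of the other leg 10 μg of plasmid with full-length *FRAIL1* behind the cytomegalovirus promoter (6 *FRAIL1* muscles), and both were taken on day 7. Both legs were injected with hyaluronidase and electroporated, so no muscle of the comparison was untouched, and the transgene is a human RNA that mice lack. RNA came from whole muscle, so a count is a sum over fibers, vessels, resident and infiltrating cells.

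Chemokines are small secreted proteins that direct the movement of leukocytes and other cells. Their families, CC, CXC, CX3C and XC, are named after the cysteines near the start of the protein, and they act through receptors coupled to G proteins of the Gi class, whereas the atypical receptors bind chemokines without that coupling and take them up or hold them at the surface. In injured muscle, Ccl2 and its receptor Ccr2 draw monocytes from the blood, and Cxcl12 and its receptor Cxcr4 guide stem cells, including those of muscle.

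Total counts lay between 45018389 and 59309210 in Control muscles and between 44848322 and 60527385 in *FRAIL1* muscles. Levels are given as CPM, counts scaled to library size with TMM factors, and the groups were compared with edgeR's quasi-likelihood test, with p-values adjusted over all 15502 genes by the Benjamini-Hochberg method and a threshold of 0.05. The summed level of 8 mature fiber markers was 173895.4 to 203129.4 CPM in Control and 132562.2 to 186398.7 CPM in *FRAIL1* muscles. *FRAIL1* muscle 5 stood apart on the leading principal component of all genes (59.5, with the next muscle at 25.8), and values without it are given beside several of the results below.

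In all, 3 chemokine genes were called higher in *FRAIL1* muscles and 0 lower. The 3 were the receptor genes *Cx3cr1* and *Cxcr4* and the ligand gene *Ccl27a*, that is 3 of 42 tested members (7.14%), while 4.43% of all tested genes were called higher. No member (0 of 42) was called lower, against 1.85% of all tested genes, and 9 of 42 members (21.4%) had an unadjusted p-value under 0.05, against 27.7% of all genes. Of these 9 members, 6 had positive and 3 negative estimates (*Cxcl12*, *Ccrl2* and *Ccl11*), and DESeq2 called 1 member lower, *Ccrl2*. The median log2 fold change of the 42 members was 0.018, against 0.0096 over all tested genes, and 23 members had a positive sign (54.8%, against 51.6% of all genes). The chemokine genes as a group thus had shares near those of all genes, and the summed CPM of the 65 members covered 375 to 493 in Control and 351 to 515 in *FRAIL1* muscles. In whole muscle, a change in the number of cells that carry a transcript and a change in the transcript per cell cannot be told apart.

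Muscles of the same number in both groups are called a pair here, although the labels do not state that a number is a mouse. With the number of the muscle pair as a block, 6 of the 42 members (14.3%) were called, against 14.1% of all tested genes. These were the 3 above and *Cxcl16*, which were higher, and the atypical receptor gene *Ccrl2* and the ligand gene *Cxcl12*, which were lower. The other members did not pass the threshold in either fit.

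The promoters of the 3 called genes are shown because these genes carry the calls of the comparison. Each is the RefSeq window of GRCm38.p6 from 250 bases before to 50 bases after a transcript start, on the minus strand, in lower case. For *Ccl27a*, the outermost 2 of 3 annotated starts are shown. Capitals mark the core GGAA, on which ETS factors bind, the AP-1 motif TGANTCA and the NF-kB consensus, on either strand.
Cx3cr1, chr9:120068247-120068546: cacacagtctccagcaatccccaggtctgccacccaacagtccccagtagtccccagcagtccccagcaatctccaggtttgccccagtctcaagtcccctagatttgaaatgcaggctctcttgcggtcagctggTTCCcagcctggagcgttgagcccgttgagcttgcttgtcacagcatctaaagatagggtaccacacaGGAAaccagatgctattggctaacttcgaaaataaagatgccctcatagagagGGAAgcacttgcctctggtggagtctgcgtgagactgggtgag
Cxcr4, chr1:128592250-128592549: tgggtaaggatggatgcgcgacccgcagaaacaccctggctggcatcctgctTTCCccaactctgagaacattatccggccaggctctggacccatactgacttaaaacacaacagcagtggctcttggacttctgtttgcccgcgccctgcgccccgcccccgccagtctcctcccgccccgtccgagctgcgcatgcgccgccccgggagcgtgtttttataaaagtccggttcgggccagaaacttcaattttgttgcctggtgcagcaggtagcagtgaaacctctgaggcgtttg
Ccl27a, upstream start, chr4:41774127-41774426: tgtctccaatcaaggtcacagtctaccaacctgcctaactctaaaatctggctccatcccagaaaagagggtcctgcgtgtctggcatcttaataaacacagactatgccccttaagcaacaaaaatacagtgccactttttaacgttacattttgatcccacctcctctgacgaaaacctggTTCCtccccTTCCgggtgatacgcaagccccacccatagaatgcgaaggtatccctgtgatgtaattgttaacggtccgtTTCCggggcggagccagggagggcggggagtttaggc
Ccl27a, downstream start, chr4:41770163-41770462: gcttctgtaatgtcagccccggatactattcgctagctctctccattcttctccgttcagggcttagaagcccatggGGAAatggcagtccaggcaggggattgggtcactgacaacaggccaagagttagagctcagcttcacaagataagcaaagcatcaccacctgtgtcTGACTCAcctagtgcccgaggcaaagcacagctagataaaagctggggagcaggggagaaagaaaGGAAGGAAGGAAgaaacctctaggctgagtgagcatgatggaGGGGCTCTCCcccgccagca
The *Cx3cr1* window held the GGAA core 3 times and the *Cxcr4* window 1 time, and neither held the AP-1 or the NF-kB motif. The downstream *Ccl27a* window held 1 AP-1 and 1 NF-kB match, and the upstream window held only the GGAA core, 3 times. Of 32851 promoter windows of this length, 96.0% held the GGAA core, 7.81% the AP-1 motif and 4.505% the NF-kB consensus. Windows were given for 48 of the 65 members, and of their 57 windows 10 (17.5%) held the AP-1 motif and 11 (19.3%) the NF-kB consensus. A match describes letters in the window and no more.

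*Cx3cr1* encodes the receptor of fractalkine and is known from monocytes, tissue macrophages and microglia. It measured 3.86, 4.57 and 5.30 CPM (lowest, median and highest) in Control muscles and 5.84, 8.09 and 13.1 CPM in *FRAIL1* muscles. All 6 *FRAIL1* muscles lay above all 6 Control muscles, and muscles 5, 1 and 4 of the *FRAIL1* group, at 13.1, 11.6 and 10.2 CPM, lay apart from the other 3, which reached 6.03 CPM. Means were 4.59 ± 0.498 CPM in Control and 8.79 ± 3.25 CPM in *FRAIL1* muscles (SD, n = 6 each), a log2 fold change of 0.94 (SE 0.21, adjusted p = 0.0217). It was the only member (1 of 42, 2.38%) whose groups did not overlap, against 4.88% of all tested genes, and it was higher in 6 of 6 pairs. Its call held in 20 of 22 alternatives and was lost without Control muscle 3 (adjusted p = 0.0509) and without *FRAIL1* muscle 1 (adjusted p = 0.0505). Without *FRAIL1* muscle 5 its log2 fold change was 0.78 (adjusted p = 0.0220). The ligand of this receptor, *Cx3cl1*, measured 4.45, 5.04 and 6.63 CPM in Control and 4.53, 5.14 and 7.63 CPM in *FRAIL1* muscles, with a log2 fold change of 0.078 (SE 0.15, adjusted p = 0.766), and its groups overlapped.

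*Cxcr4*, the receptor of Cxcl12 on leukocytes, stem cells and vessels, measured 5.78, 7.86 and 8.29 CPM (lowest, median and highest) in Control muscles and 8.18, 10.7 and 17.4 CPM in *FRAIL1* muscles. The groups overlapped by a narrow margin, since 2 *FRAIL1* muscles, at 8.18 and 8.34 CPM, lay near the highest Control muscle at 8.29 CPM. The mean was 7.51 ± 0.929 CPM in Control and 11.4 ± 3.44 CPM in *FRAIL1* muscles, for a log2 fold change of 0.60 (SE 0.17, adjusted p = 0.0484), and 6 of 6 pairs were higher. This call was close to the threshold: it held without *FRAIL1* muscle 2, 3 or 5, and was lost without any 1 of the other 9 muscles, with adjusted p-values of up to 0.0989 (without Control muscle 1). *FRAIL1* muscle 5 had the highest value, 17.4 CPM, and without it the log2 fold change was 0.43 (adjusted p = 0.0498). Without both muscles numbered 5 the call was lost (0.45, adjusted p = 0.0599, and 0.0888 with the block).

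*Cxcl12*, the ligand of Cxcr4 made by stromal and endothelial cells, measured 71.8, 82.3 and 93.2 CPM (lowest, median and highest) in Control muscles and 66.7, 70.1 and 79.2 CPM in *FRAIL1* muscles. *FRAIL1* muscles were lower in 6 of 6 pairs although the groups overlapped, and the log2 fold change was -0.19 (SE 0.069, adjusted p = 0.0995), which passed the threshold with the pair block (adjusted p = 0.0384) and in no fit without it. *Ackr3*, the atypical receptor that takes up Cxcl12, measured 12.1, 14.8 and 18.5 CPM in Control and 9.95, 13.8 and 18.1 CPM in *FRAIL1* muscles, for a log2 fold change of -0.079 (SE 0.15, adjusted p = 0.761). Of this ligand and its receptors, only *Cxcr4* passed the threshold without the block. Marker lists of endothelial and of stromal cells are given beside it because both make Cxcl12. Of 9 tested endothelial markers 0 were called higher and 2 lower, *Tek* at -0.41 (adjusted p = 0.0186) and *Vwf* at -0.25 (adjusted p = 0.0481). With the pair block 0 were called higher and 3 lower. Only 1 of the 9 had a positive estimate (median log2 fold change -0.17). The summed level of the 9 markers was 434 to 506 CPM in Control and 353 to 451 CPM in *FRAIL1* muscles, and 0 of the markers were at 0 in every muscle. Of 9 fibroblast and fibro-adipogenic progenitor markers, 0 were called and 6 had positive estimates (median 0.10). Their summed level, mostly of 2 collagen genes, was 1058 to 1879.5 CPM in Control and 1980 to 4995 CPM in *FRAIL1* muscles. The part of either list in the *Cxcl12* result was not tested.

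*Ccl27a*, a ligand of Ccr10 best known from skin, measured 4.18, 5.21 and 6.63 CPM (lowest, median and highest) in Control muscles and 6.15, 7.04 and 7.71 CPM in *FRAIL1* muscles. *FRAIL1* muscles lay between 6.15 and 7.71 CPM, and only Control muscle 6, at 6.63 CPM, reached into that range. Means were 5.24 ± 0.875 CPM in Control and 6.95 ± 0.649 CPM in *FRAIL1* muscles, with a log2 fold change of 0.41 (SE 0.11, adjusted p = 0.0469), higher in 6 of 6 pairs. The call held without Control muscle 6 and without *FRAIL1* muscle 2 or 3, and was lost without any 1 of the other 9 muscles, with adjusted p-values of up to 0.0971 (without *FRAIL1* muscle 1). *Ccl27a* lies on chromosome 4 in a duplicated region: all 996 bases of its longest transcript match *Gm20878* at 98% identity or more, and 163 match *Gm13306*. *Gm20878* had 0 counts and *Gm13306* had 21 over all muscles, against 3737 for *Ccl27a*, and reads that match several copies were not counted. The exons of *Ccl27a* overlap those of its neighbour *Il11ra1*, which was itself higher (0.27, adjusted p = 0.0380), by 8 bases. The receptor gene *Ccr10* was below 1 CPM, with a log2 fold change of 0.30 (SE 0.34, adjusted p = 0.605).

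**Figure D1:**
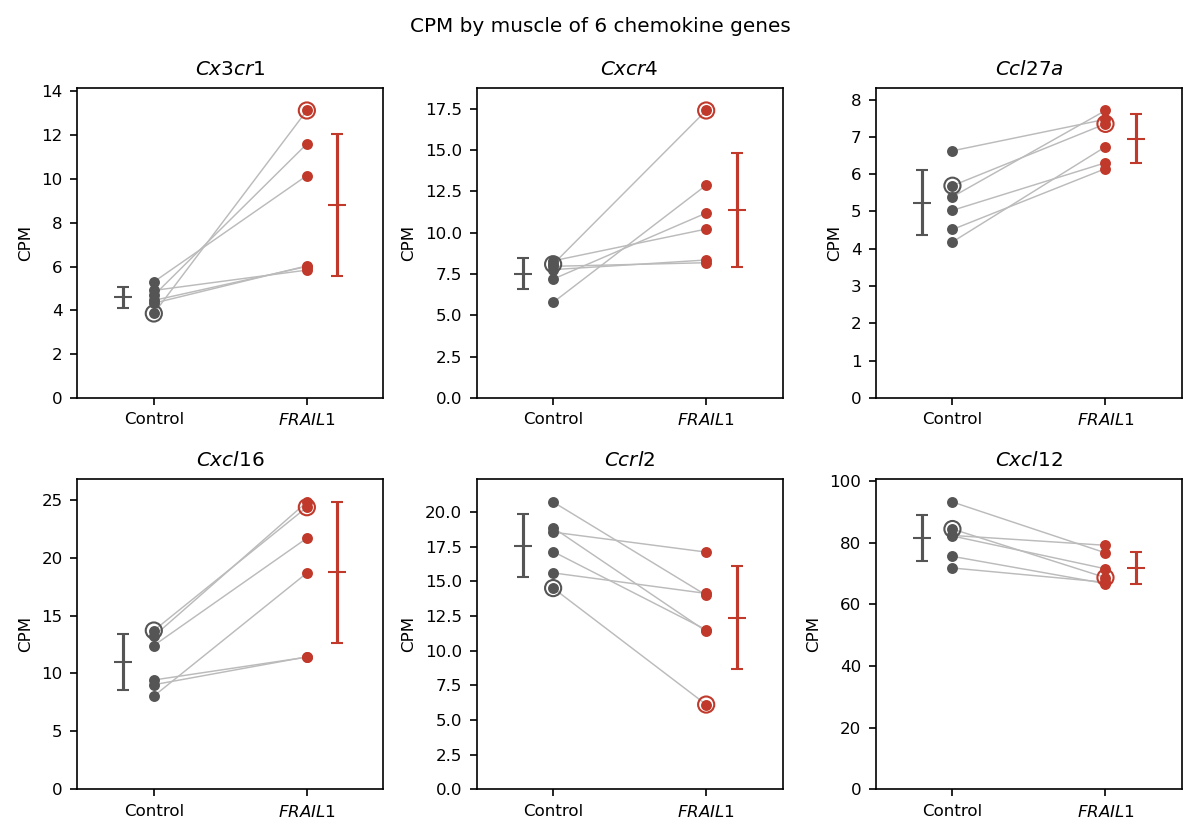
CPM (y axis, from 0) of 6 chemokine genes in Control and *FRAIL1* muscles. Points are muscles, grey lines join muscles of the same number, rings mark muscles numbered 5, and the bars beside the points give the mean ± SD (n = 6). *Cx3cr1* is the panel whose groups do not overlap, and *Ccrl2* and *Cxcl12* are lower in 6 of 6 pairs.

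Ligands bound to the membrane and XC ligands were 3 genes. *Cxcl16*, a transmembrane ligand and scavenger receptor of macrophages and dendritic cells, measured 8.05, 10.9 and 13.7 CPM (lowest, median and highest) in Control muscles and 11.4, 20.2 and 24.8 CPM in *FRAIL1* muscles. *FRAIL1* muscles 4, 5, 1 and 6 lay above every Control muscle, and muscles 2 and 3, at 11.4 CPM, lay within the Control range. With means of 11.0 ± 2.42 CPM in Control and 18.7 ± 6.06 CPM in *FRAIL1* muscles, it had a log2 fold change of 0.77 (SE 0.22, adjusted p = 0.0568), just short of the threshold, and with the pair block it passed (adjusted p = 0.00663). It also passed with DESeq2 (adjusted p = 0.00605) and limma voom (adjusted p = 0.0251). Of the 12 fits that left out 1 muscle, those without *FRAIL1* muscle 2 or 3 passed (adjusted p = 0.0241 and 0.0200) and 10 did not, with an adjusted p of up to 0.121 without *FRAIL1* muscle 5. *Zmynd15* on the opposite strand overlaps 18.3% of the exon bases of *Cxcl16* and was itself higher (0.82, adjusted p = 0.0221). The receptor of Cxcl16, *Cxcr6* of T cells and NKT cells, measured 0.745, 1.11 and 1.53 CPM in Control and 0.654, 0.968 and 1.37 CPM in *FRAIL1* muscles, for a log2 fold change of -0.11 (SE 0.24, adjusted p = 0.792). Neither this receptor nor the XC pair passed the threshold, and the groups overlapped in each. *Xcl1*, made by NK and CD8 T cells, measured 0.768, 1.40 and 2.05 CPM in Control and 1.25, 1.39 and 1.98 CPM in *FRAIL1* muscles, with a log2 fold change of 0.11 (SE 0.22, adjusted p = 0.788). Its receptor *Xcr1*, a marker of cross-presenting dendritic cells, measured 1.29, 2.03 and 2.66 CPM in Control and 1.28, 2.27 and 2.41 CPM in *FRAIL1* muscles, with 0.0097 (SE 0.21, adjusted p = 0.983) on the log2 scale.

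Monocyte-attracting CC ligands were all detected and 0 of 4 passed the threshold (median log2 fold change 0.086). *Ccl2*, the main ligand of Ccr2, measured 1.97, 6.04 and 8.55 CPM in Control and 2.30, 4.60 and 7.50 CPM in *FRAIL1* muscles, given as lowest, median and highest here and below, and it had a log2 fold change of -0.35 (SE 0.34, adjusted p = 0.540). For *Ccl7* the values were 2.26, 6.54 and 9.01 CPM in Control and 2.98, 5.14 and 9.61 CPM in *FRAIL1* muscles, and the log2 fold change was -0.079 (SE 0.31, adjusted p = 0.899). Both genes were lowest in Control muscle 6 within their group and in *FRAIL1* muscle 3 within theirs. *Ccl8* measured 3.25, 4.9997 and 7.05 CPM in Control and 3.03, 5.79 and 8.19 CPM in *FRAIL1* muscles, with 0.25 (SE 0.22, adjusted p = 0.478) on the log2 scale. *Ccl12*, a mouse ligand of Ccr2, measured 0.678, 1.54 and 1.69 CPM in Control and 0.840, 1.61 and 2.60 CPM in *FRAIL1* muscles, with a log2 fold change of 0.35 (SE 0.29, adjusted p = 0.444). The 4 estimates had both signs, that of *Ccl7* was positive with limma voom (0.074), and the groups overlapped for each gene. *Ccr2*, the receptor of Ccl2, Ccl7 and Ccl12 on monocytes, measured 16.0, 22.2 and 36.2 CPM in Control and 20.0, 23.4 and 31.1 CPM in *FRAIL1* muscles, for a log2 fold change of 0.024 (SE 0.17, adjusted p = 0.945).

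The macrophage inflammatory proteins and related CC ligands had 0 of 5 genes called and a median log2 fold change of 0.28. The largest estimate of all tested members was that of *Ccl3*, at 1.06 (SE 0.36, adjusted p = 0.0822), but its mean was below 1 CPM and its groups overlapped. *Ccl4*, its neighbour on chromosome 11, had 0.21 (SE 0.36, adjusted p = 0.737). Both are made by activated macrophages, and neither passed the threshold in edgeR with all muscles, without or with the pair block (adjusted p = 0.0503 for *Ccl3* with it). DESeq2 called *Ccl3* higher, without and with the block. So did edgeR without *FRAIL1* muscle 3, and with the block without both muscles numbered 5. *Ccl5*, a product of T cells and macrophages, measured 4.26, 7.67 and 8.91 CPM in Control and 6.17, 8.14 and 14.1 CPM in *FRAIL1* muscles, for a log2 fold change of 0.35 (SE 0.23, adjusted p = 0.335). Values of *Ccl9* were 5.68, 9.99 and 11.4 CPM in Control and 6.82, 9.13 and 19.2 CPM in *FRAIL1* muscles, with the highest in *FRAIL1* muscle 4, and the log2 fold change was 0.28 (SE 0.26, adjusted p = 0.520). *Ccl6* measured 12.2, 15.2 and 21.7 CPM in Control and 10.7, 14.4 and 19.3 CPM in *FRAIL1* muscles, with -0.13 (SE 0.16, adjusted p = 0.623) on the log2 scale. The highest values of *Ccl5* and *Ccl9* were in the same muscle, *FRAIL1* muscle 4. *Ccr1*, a receptor of several of these ligands, measured 0.439, 1.37 and 1.62 CPM in Control and 0.445, 0.935 and 1.54 CPM in *FRAIL1* muscles, with a log2 fold change of -0.43 (SE 0.32, adjusted p = 0.404).

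Of the interferon-inducible genes of the Cxcr3 ligands, which draw activated T cells, *Cxcl9* and *Cxcl10* were among the most abundant members, and 0 of 3 passed the threshold. *Cxcl9* measured 35.0, 58.0 and 77.8 CPM in Control and 21.0, 48.5 and 59.8 CPM in *FRAIL1* muscles, for a log2 fold change of -0.28 (SE 0.26, adjusted p = 0.512). *Cxcl10* measured 16.0, 28.3 and 34.2 CPM in Control and 11.5, 23.4 and 39.5 CPM in *FRAIL1* muscles, for a log2 fold change of -0.032 (SE 0.29, adjusted p = 0.960). Their ranges overlapped over most of their width, and the lowest values of both were in *FRAIL1* muscle 3. *Cxcl11*, annotated in mouse as a transcribed pseudogene, measured 0.329, 0.982 and 1.51 CPM in Control and 0.413, 0.982 and 2.12 CPM in *FRAIL1* muscles, with 0.18 (SE 0.42, adjusted p = 0.812) on the log2 scale, and a processed pseudogene on the opposite strand overlaps 41.7% of its exon bases. *Cxcr3* itself measured 1.47, 1.94 and 2.92 CPM in Control and 1.11, 1.78 and 3.66 CPM in *FRAIL1* muscles, for a log2 fold change of -0.066 (SE 0.25, adjusted p = 0.896), with the highest value in *FRAIL1* muscle 4.

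Among the remaining ligands, *Cxcl14*, a homeostatic chemokine, had the highest level per length of all members. It measured 54.4, 72.8 and 84.9 CPM in Control and 63.9, 72.4 and 80.6 CPM in *FRAIL1* muscles, with 0.024 (SE 0.089, adjusted p = 0.892) on the log2 scale. *Ccl11*, the eotaxin that attracts eosinophils through Ccr3, measured 11.99, 13.9 and 16.4 CPM in Control and 8.25, 11.8 and 14.2 CPM in *FRAIL1* muscles, with a log2 fold change of -0.27 (SE 0.12, adjusted p = 0.161). It was lower in 5 of 6 pairs but did not pass the threshold. *Ccl22*, a ligand of Ccr4 from dendritic cells and macrophages, measured 1.66, 2.20 and 3.93 CPM in Control and 1.54, 2.49 and 3.34 CPM in *FRAIL1* muscles, with 0.013 (SE 0.21, adjusted p = 0.977) on the log2 scale. *Ccl25*, the ligand of Ccr9 known from thymus and gut, measured 3.07, 3.28 and 3.73 CPM in Control and 2.53, 3.02 and 3.31 CPM in *FRAIL1* muscles, with a log2 fold change of -0.16 (SE 0.11, adjusted p = 0.357). Below 1 CPM, *Ccl17*, *Ccl24*, *Ccl28* and *Cxcl1* had log2 fold changes from -0.33 to 0.034 and adjusted p-values from 0.759 to 0.973.

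The receptor genes *Ccr7*, *Ccr9* and *Cxcr5*, of lymphocytes and dendritic cells, did not pass the threshold. *Ccr7*, which guides cells to lymph nodes, measured 1.68, 1.95 and 3.46 CPM in Control and 1.75, 2.701 and 3.70 CPM in *FRAIL1* muscles, with a log2 fold change of 0.27 (SE 0.23, adjusted p = 0.476). *Ccr9* and *Cxcr5*, below 1 CPM, had log2 fold changes of 0.56 (SE 0.25, adjusted p = 0.158) and 0.17 (SE 0.28, adjusted p = 0.729). A neighbouring transcript overlaps 18.8% of the exon bases of *Ccr9*, so that value carries the limit of a count whose strand setting was not given in the sources used here.

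The 5 atypical receptor genes all had negative estimates, with a median log2 fold change of -0.34, although that of *Ackr3* was 0.0076 without both muscles numbered 5, and 0 were called without the block. *Ccrl2*, which binds chemerin and presents it on endothelium and myeloid cells, measured 14.5, 17.8 and 20.7 CPM (lowest, median and highest) in Control muscles and 6.11, 12.7 and 17.1 CPM in *FRAIL1* muscles. Its value was lower in 6 of 6 pairs, and *FRAIL1* muscle 5, at 6.11 CPM, was the lowest, with the next at 11.4 CPM. With means of 17.6 ± 2.28 CPM in Control and 12.4 ± 3.71 CPM in *FRAIL1* muscles, it had a log2 fold change of -0.51 (SE 0.19, adjusted p = 0.107), and the pair block gave an adjusted p of 0.0267. Without *FRAIL1* muscle 5 the log2 fold change was -0.37 (adjusted p = 0.0708), and in all 12 fits that left out 1 muscle the adjusted p lay between 0.0685 and 0.182. It passed the threshold without both muscles numbered 5 (-0.42, adjusted p = 0.0451) and with DESeq2 (adjusted p = 0.0444). The other atypical receptors passed it in neither fit. *Ackr1*, the Duffy antigen receptor of venular endothelium, measured 2.92, 3.45 and 3.93 CPM in Control and 2.02, 2.54 and 3.68 CPM in *FRAIL1* muscles, with a log2 fold change of -0.34 (SE 0.16, adjusted p = 0.190), and *Cadm3* on the same strand overlaps 25.7% of its exon bases. *Ackr2*, a scavenger of inflammatory CC chemokines, and *Ackr4*, which takes up Ccl19 and Ccl21, had log2 fold changes of -0.45 (SE 0.34, adjusted p = 0.411) and -0.086 (SE 0.45, adjusted p = 0.925).

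**Figure D2:**
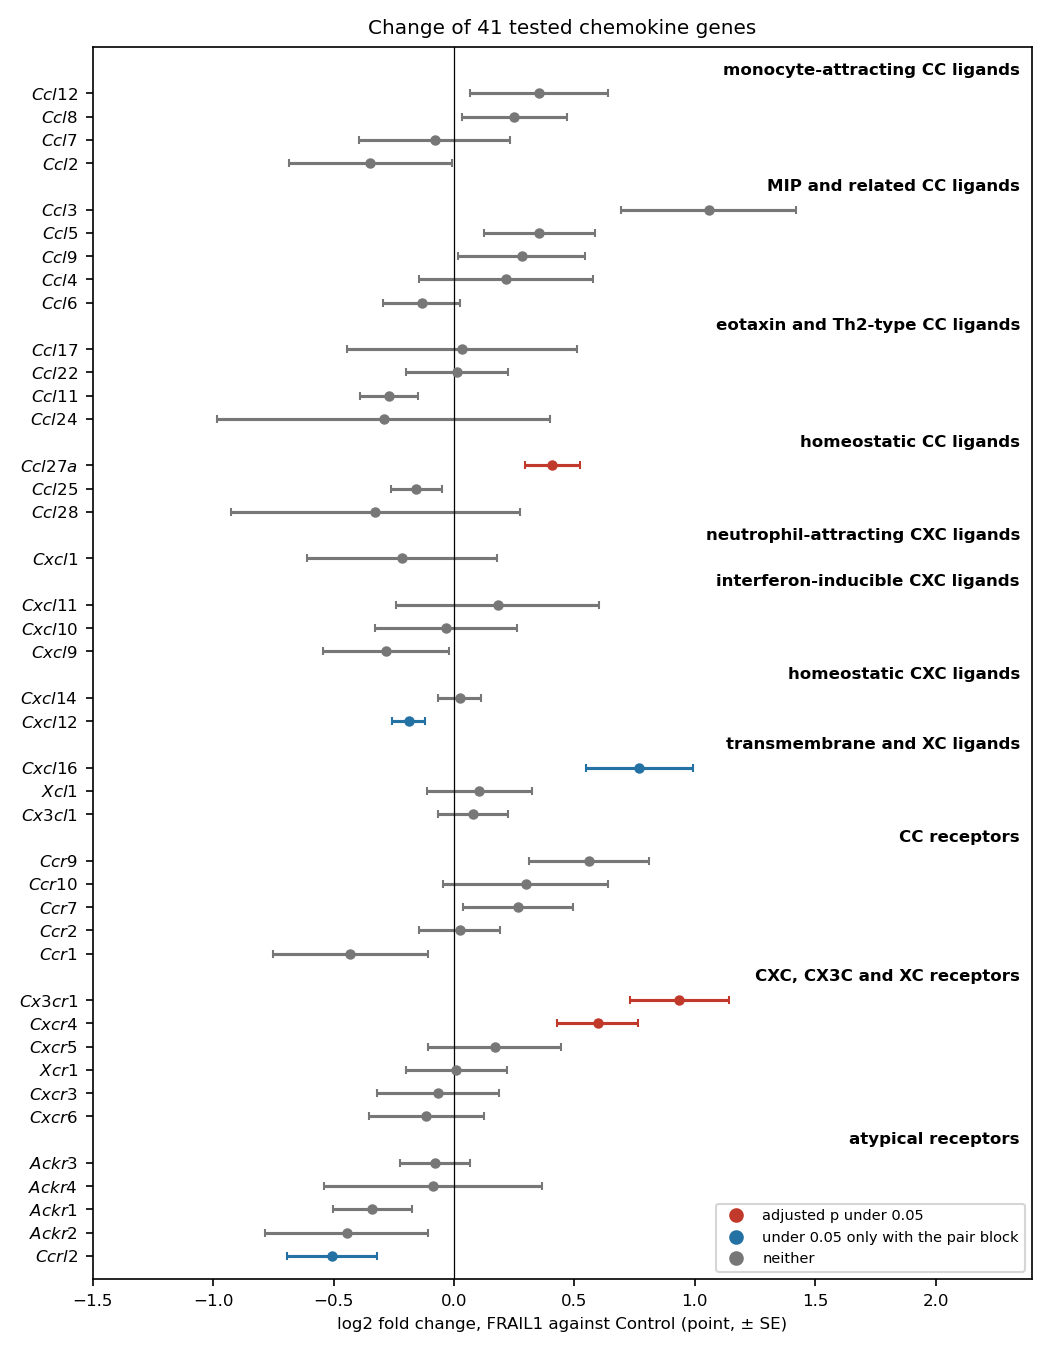
Log2 fold change of *FRAIL1* against Control muscles (x axis; points with ± SE) of 41 of the 42 tested members, grouped by role. Red points (*Cx3cr1*, *Cxcr4*, *Ccl27a*) had an adjusted p under 0.05 without the pair block, and blue points (*Cxcl16*, *Cxcl12*, *Ccrl2*) in the edgeR fit with the block but not in that without it, and the 5 atypical receptors lie left of 0 here, though *Ackr3* turned to 0.0076 without both muscles numbered 5.

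Between genes, levels can be compared only per length of exon, as CPM per kilobase. In Control muscles *Cxcl14* was highest at 39.0 CPM per kilobase, followed by *Cxcl9* at 18.6, *Ccl11* at 13.0, *Cxcl10* at 11.7 and *Cxcl12* at 9.98 CPM per kilobase. Among receptors, *Ccrl2* led at 6.76 CPM per kilobase in Control muscles, and in *FRAIL1* muscles *Cxcr4* led at 6.29, with *Ccrl2* at 4.76 CPM per kilobase. The level of *Cx3cr1* was 1.02 CPM per kilobase in Control and 1.95 in *FRAIL1* muscles. The lowest tested members, *Ccr9*, *Ackr4* and *Ccl28*, had at most 0.0801 CPM per kilobase in both groups.

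**Figure D3:**
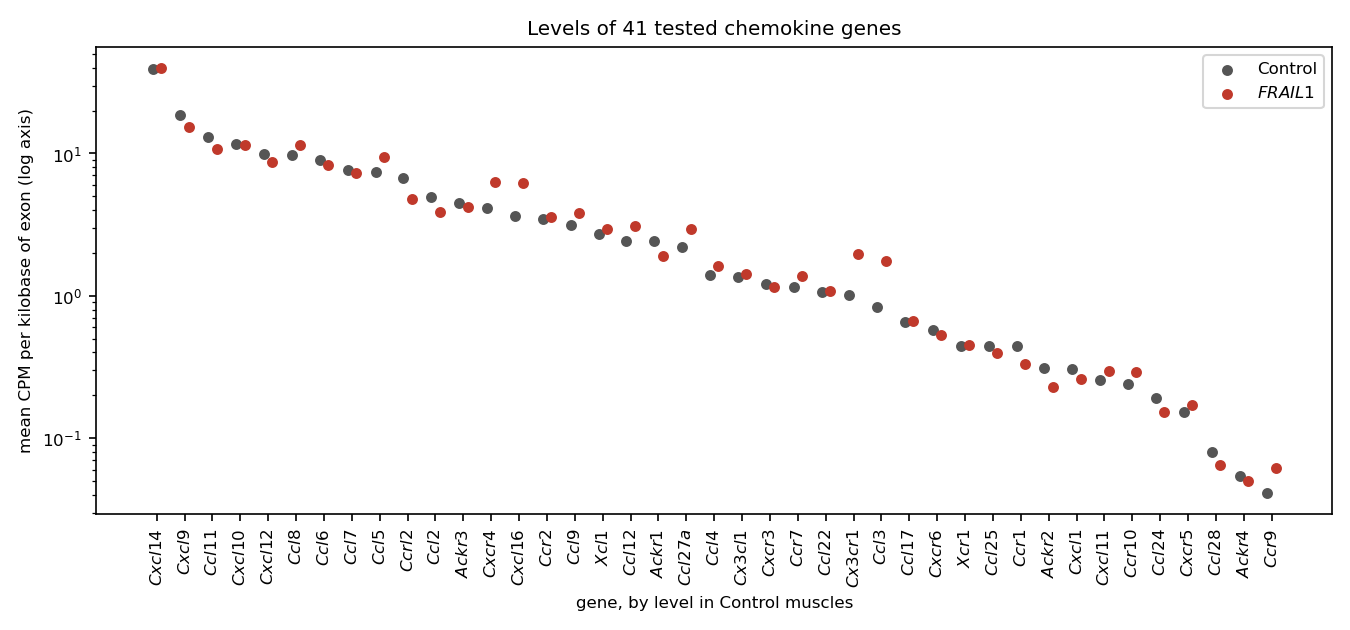
Mean level of 41 of the 42 tested members in CPM per kilobase of exon (log axis), in the order of their Control level, with 1 point for each group (grey Control, red *FRAIL1*). Levels span from 39.0 CPM per kilobase (*Cxcl14*) to 0.0413 (*Ccr9*) in Control muscles.

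Single muscles stood out across many members. Control muscle 6 held the lowest Control value for 20 of the 42 tested members, although it was lowest of its group for 17.9% of all tested genes. *FRAIL1* muscle 3 was lowest of its group for 17 of the 42, against 20.7% of all genes, and *FRAIL1* muscle 4 was highest for 17 of the 42, against 11.6% of all genes. The leading principal component of the members held 39.0% of their variance, and Control muscle 6 and *FRAIL1* muscle 3 lay at its end, at 5.07 and 3.30, with the other 10 muscles between -2.67 and 1.53. Without *FRAIL1* muscle 3, 5 members were called higher (the 3 above, *Cxcl16* and *Ccl3*), and without Control muscle 6, 2 were (*Cx3cr1* and *Ccl27a*).

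**Figure D4:**
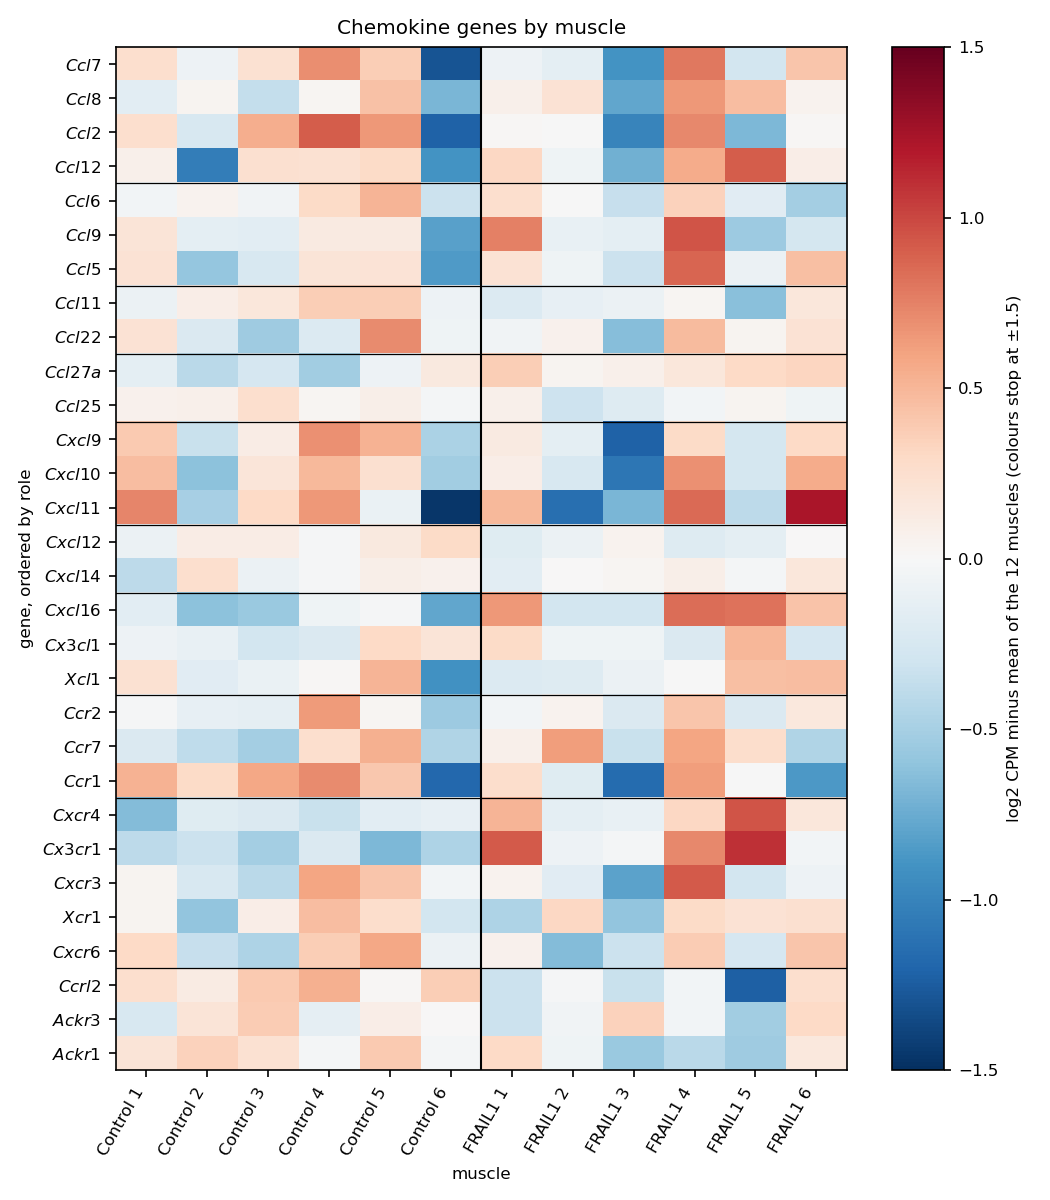
Log2 CPM of 30 of the 31 members that were called or had a mean of 1 CPM or more, less the mean of the 12 muscles (colour scale from -1.5 to 1.5), with genes in rows by role (lines part the roles) and muscles in columns. Control muscle 6 and *FRAIL1* muscle 3 are blue across most inflammatory ligands, and *Cx3cr1*, *Cxcr4* and *Cxcl16* are red in *FRAIL1* muscles 1, 4 and 5.

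Markers of the cell types that carry these genes were read from the same fit. Of 14 macrophage and monocyte markers, 12 had positive estimates (median log2 fold change 0.58), 0 were called and 6 were called with the pair block, and 8 had an unadjusted p-value under 0.05. Their summed level was 267 to 424 CPM in Control and 333 to 839 CPM in *FRAIL1* muscles, with the highest sums in *FRAIL1* muscles 1, 4 and 5 (839, 755 and 669 CPM), the muscles in which *Cx3cr1*, *Cxcr4* and *Cxcl16* were high too. Of the 14 markers, 0 were at 0 in every muscle. The part of these cells in the 3 results was not tested.

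Satellite cell and regenerating fiber markers were higher. Of 8 markers, 5 were called higher, and 8 of 8 had positive estimates with a median log2 fold change of 1.61. They included *Mymk* and *Mymx*, which drive myoblast fusion (1.85, adjusted p = 0.00265, and 1.76, adjusted p = 0.00324), the embryonic myosin *Myh3* (2.16, adjusted p = 0.0124) and *Myog*, a regulator of differentiation (1.46, adjusted p = 0.0124). Their sum was 169 to 219 CPM in Control and 332 to 1563 CPM in *FRAIL1* muscles, highest in muscle 5, with the next at 664 CPM, and lowest in muscles 2 and 3. *FRAIL1* muscle 5 was also highest for *Cx3cr1* and *Cxcr4*, and without it the median was 1.24 and 5 markers were called. Of the 8 markers, 0 were at 0 in every muscle. Whether these cells carry the higher *Cxcr4* counts was not tested.

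Other cell types gave few calls. The lists of T and NK cells (11 tested, median log2 fold change 0.0032, summed level 26.2 to 43.9 CPM in Control and 21.2 to 47.4 CPM in *FRAIL1* muscles), dendritic cells (7, median 0.072), neutrophils (3, median 0.60), B cells (4, median -0.30), mast cells and eosinophils (4, median -0.070) and Schwann cells (6, median -0.22) held 0 called genes in either direction. With the pair block, 1 T and NK cell marker and 1 Schwann cell marker were called higher, and 0 markers of the other lists named here were called. These were *Cd4* (0.74, block adjusted p = 0.0127) and *Ngfr* (0.55, block adjusted p = 0.0415), named after their values were seen. Of 9 fibroblast and fibro-adipogenic progenitor markers, 0 were called either, without or with the pair block (median 0.10), but 4 had an unadjusted p-value under 0.05. Their summed level did not overlap between the groups, at 1058 to 1879.5 CPM in Control and 1980 to 4995 CPM in *FRAIL1* muscles. The highest sum was in *FRAIL1* muscle 5, with the next at 2444 CPM. Without that muscle the median was -0.011 and 1 marker was called higher. The collagen genes *Col1a1* (1.04, adjusted p = 0.0522) and *Col3a1* (0.82, adjusted p = 0.0671), named after their values were seen, were the 2 markers of this list whose groups did not overlap. They made up most of the sum, with means of 449 and 731 CPM in Control and 927 and 1293 CPM in *FRAIL1* muscles. Of the 9 markers, 6 had positive estimates, and *Ly6a* (-0.18), *Pi16* (-0.14) and *Dpp4* (-0.11) had negative ones. The part of these cells in the chemokine results was not tested. Of 8 mature fiber markers, 1 was called, *Ckm*, the muscle creatine kinase, with a log2 fold change of -0.38 (adjusted p = 0.0482), and 6 of the 8 had negative estimates. With the pair block 2 of the 8 were called lower.

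**Figure D5:**
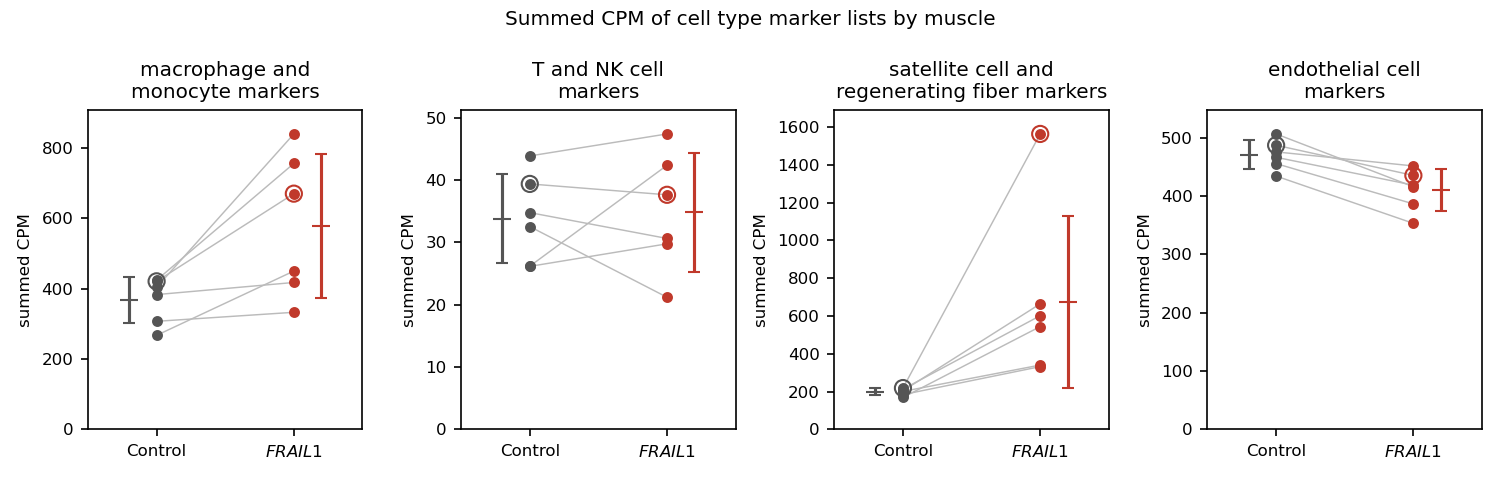
Summed CPM (y axis, from 0) of 4 marker lists in each muscle, with grey lines between muscles of the same number, rings on muscles numbered 5 and the mean ± SD beside the points (n = 6). Macrophage sums reach 839 CPM and regenerating fiber markers 1563 CPM in *FRAIL1* muscles, and sums of T and NK cell markers overlap between the groups.

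Genes that act with chemokines were also counted. Of 11 chemokines and partners that the naming rule leaves out, such as the cytokine Mif and chemerin, 0 were called (median log2 fold change 0.013). With the pair block 1 was called lower, the chemerin gene *Rarres2* (block adjusted p = 0.0484), named after its values were seen. Without the block it had a log2 fold change of -0.32 (adjusted p = 0.0592). Of 29 genes of chemokine receptor signalling, from Gi subunits to Rac and Dock2, 1 was called higher and 0 lower, with 22 positive estimates and a median of 0.23. The called gene was *Rgs2*, a brake on G protein signalling (0.55, adjusted p = 0.0424), and without *FRAIL1* muscle 5, as without any 1 of 9 other muscles, the list held 0 called genes. With the pair block 4 were called higher, *Rgs2* and, named after their values were seen, the beta-arrestin *Arrb2*, the kinase *Ptk2b* and the Rac exchange factor *Prex1*, and 1 lower, the GTPase *Rac1* (block adjusted p = 0.0472). Of 20 tested genes for cytokines, their receptors and NF-kB factors, 1 was called higher, *Nfkb2*, an NF-kB subunit (0.34, adjusted p = 0.0275), 0 were called lower, and the median was 0.095. With the pair block 2 of them were called higher and 0 lower. These medians stand against 0.0096 over all tested genes.

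The 23 members that were not tested had few or 0 counts. Over the 12 muscles together, *Cxcl13* had 123 counts, *Ccr4* 72, *Cxcr2* 66, *Cxcl5* 64, *Cxcl2* 56, *Ccl1* 45, *Ccr8* 37 and *Ccr3* 26. *Ccr1l1*, *Ccl20*, *Ccr6*, *Cxcl17*, *Cxcr1*, *Ccl27b* and *Ccl21a* had between 3 and 15 counts. *Ccl19*, *Ccl19-ps1*, *Ccl21b*, *Ccl21c*, *Ccl21d*, *Ccl26*, *Cxcl3* and *Cxcl15* had 0 counts in every muscle, which allows up to 3 counts, or 0.0514 to 0.0705 CPM, in a muscle, for counting error only. Genes with near-identical copies, such as *Ccl21a*, *Ccl21b* and *Ccl27b*, can lose reads that match several places, so their low counts are uncertain. The neutrophil receptors *Cxcr1* and *Cxcr2* and their ligands *Cxcl2*, *Cxcl3* and *Cxcl5* were thus near the limit of detection in both groups. *Cxcl1*, of the same neutrophil-attracting ligands, had counts in all 12 muscles and was tested, with means of 0.570 CPM in Control and 0.491 CPM in *FRAIL1* muscles.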

How the data were processed

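RNA-seq counts of 12 TA muscles were used. Per the labels and the paper's methods, the authors trimmed reads with Trimmomatic, mapped them to mm10 with STAR 2.7.8a and deposited raw counts per gene of uniquely mapped reads from featureCounts 2.0.1, and the strand setting was not given in the sources used here. Of 27179 NCBI Gene IDs, 25275 matched a symbol, and the others held 0.280% of counts. Genes passed filterByExpr, were scaled by TMM and tested by robust quasi-likelihood fits in edgeR 4.0.16 (R 4.3.3), with group as the only term and Benjamini-Hochberg adjustment. The fit was also run on simulated counts, drawn independently for each muscle, without pairs or an outlying muscle. That run cannot show how the fit behaves on data with these features. Alternatives used limma 3.58.1 and DESeq2 1.42.0. Copies were searched with BLAST 2.17.0 (98% identity over 100 bases). Exon lengths and overlaps came from GENCODE M21, promoters from RefSeq.

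Members and lists were chosen with earlier results of these data known. Members that were called, or had a mean of 1 CPM or more over the 12 muscles, are given with values by muscle. By plan, at most 4 called genes of each pathway or marker list, those with the smallest adjusted p, were named. Outside this plan, further genes were named after their values were seen. These were *Cd4*, *Ngfr*, *Rarres2*, *Arrb2*, *Ptk2b*, *Prex1*, *Rac1*, *Col1a1*, *Col3a1*, *Ly6a*, *Pi16* and *Dpp4*. Of the members, 1 is not reported here by name or value. The groups hold 6 muscles each, with 1 of each group from every mouse by the study's design. The labels give the muscles the numbers 1 to 6 in both groups and do not state that a number is a mouse. The deviations of same-numbered muscles from their group means correlated at 0.254, 0.162, 0.282, 0.263, 0.0547 and 0.185 over the tested genes (mean 0.200, against -0.0400 between different numbers), and the numbers were used as a block in an alternative fit. A muscle had 44848322 to 60527385 counts. The error given with a mean is the SD between muscles. The SE of a log2 fold change is its absolute value divided by the square root of edgeR's quasi-likelihood F statistic. It holds both the spread between muscles and the counting error.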

Additional observations from a re-analysis of the deposited data

Results flagged for a closer look

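Of 62 groups of 6 muscles (31 members in each of 2 groups), 3 had 1 muscle far from the others, and chance alone flags about 1 in 20. *Ccr1* was at 0.439 CPM in Control muscle 6, with the next muscle at 1.21 CPM. *Cxcr3* was at 3.66 CPM in *FRAIL1* muscle 4, with the next at 2.01 CPM. *Ccl25* was at 3.73 CPM in Control muscle 3, with the next at 3.31 CPM. The 3 values lay in 3 different muscles, and 0 of them in *FRAIL1* muscle 5. The 3 genes were not among the called members.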

How the results depend on the processing

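The number of members called moved between 0 and 5 higher when 1 muscle was left out (0 without Control muscle 3 or *FRAIL1* muscle 1, 5 without *FRAIL1* muscle 3), with 0 lower each time. With the pair block edgeR called 4 higher and 2 lower, DESeq2's Wald test 5 higher and 1 lower, and DESeq2 with the block 5 higher and 2 lower. Without a filter 1 was called higher, *Cx3cr1*, in a test over 21534 genes. Without both muscles numbered 5, 1 was called higher and 1 lower, and with the block also 5 higher and 2 lower. Over all tested genes 974 were called, and 364 to 2110 when 1 muscle was left out, 2186 with the block, 2211 with DESeq2, 2875 with DESeq2 and the block and 1836 with limma voom. The scalings by DESeq2's size factors and by the upper quartile called 3 members higher and 0 lower. Over the alternatives, the called genes numbered 0 to 8 of 14 macrophage markers, 4 to 8 of 8 regenerating fiber markers (5 in the main comparison), 1 to 6 of 9 endothelial markers (2) and 0 to 9 of 29 signalling genes (1).

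Of 682 values of 31 members under 22 alternatives, 48 of 12 members changed sign, with adjusted p-values from 0.747 to 0.995. The log2 fold changes were, with limma voom, *Cxcr3* 0.067, *Cxcr6* 0.039, *Cxcl10* 0.14, *Ccl7* 0.074; without both muscles numbered 5, *Ackr3* 0.0076, *Cxcr3* 0.054, *Cxcr6* 0.038, *Cxcl10* 0.053, *Ccl7* 0.024; with the block as well, *Ackr3* 0.0024, *Cxcr3* 0.0069, *Cxcr6* 0.027, *Cxcl10* 0.011, *Ccl7* 0.022; and with DESeq2 and the block, *Xcr1* -0.0042. When 1 muscle was left out, the ranges were -0.17 to 0.0022 for *Ackr3*, -0.088 to 0.19 for *Ccl22*, -0.28 to 0.064 for *Ccl7*, -0.066 to 0.19 for *Ccr2*, -0.032 to 0.15 for *Cx3cl1*, -0.19 to 0.12 for *Cxcl10*, -0.11 to 0.35 for *Cxcl11*, -0.044 to 0.079 for *Cxcl14*, -0.33 to 0.057 for *Cxcr3*, -0.021 to 0.23 for *Xcl1*, -0.092 to 0.11 for *Xcr1*. The cause was not tested. Counts limit the members under 1 CPM, and the strand setting limits those that overlap other genes.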
